A study of Homo sapiens with 4 samples.

Results

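Proteoglycans are core proteins that carry glycosaminoglycans, the long sulfated sugar chains that hold water in cartilage and bind growth factors at the cell surface. RNA levels of 38 genes of this system were read from the 61806 genes measured. The genes were taken by name from a written list, with no cut on their values. The list was drawn up with earlier results of these data known. They comprised 19 core proteins, 18 enzymes that make or modify the chains, and CD44, the cell surface receptor for hyaluronan. All 38 were found in the table.

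The samples were 2 human bone cancer cell lines, namely JJ012 from a chondrosarcoma and 143B from an osteosarcoma. Each line was kept in suspension, detached from a substrate, and was sequenced once without treatment (control) and once after 1 mM melatonin for 72 h. Suspension was therefore shared by the controls and the treated cells, and attached cells were not analysed here. Each condition was 1 library of poly(A) RNA, so that no difference within a line has a replicate check, and no test was run. Each tumor type is represented by 1 line, so that line and tumor type cannot be told apart.

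A core protein is made in the endoplasmic reticulum and receives a short linker of sugars on serine, which xylosyltransferases begin with xylose. The linker is then extended as chondroitin sulfate by enzymes of the CHSY, CHPF and CSGALNACT families, or as heparan sulfate by the EXT enzymes, and sulfotransferases modify the growing chain. Hyaluronan differs in that it has no core protein and no sulfate and is made at the plasma membrane by the HAS enzymes. Cartilage owes its resistance to compression to this matrix, and chondrosarcomas are known as tumors that form a cartilage-like matrix.

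Levels are given as FPKM, which are counts divided by the exonic length of the gene and by the total counts of the library. A difference is given as log2 of the ratio of FPKM + 1. A gene was compared where 1 or both of the 2 libraries reached 1 FPKM. Melatonin and control libraries were called different at 0.58 or more on this scale, and the lines at 1 or more. Folds of single genes are ratios of CPM, which are counts scaled to the library total, and are given with a 95% interval (exact, Clopper-Pearson). Such an interval holds counting error alone and says nothing of the variation between cultures.

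The libraries held between 15889564 and 19218343 counts, and a floor of 3 counts corresponded to between 0.156 and 0.189 CPM. The labelled tissues were checked against markers. Of 8 chondrocyte markers, 2 reached 1 FPKM in the JJ012 control, and 1 did so in each of the other libraries. Their summed level was 17.69 FPKM in the JJ012 control, 7.13 in melatonin-treated JJ012, 16.77 in the 143B control and 13.05 in melatonin-treated 143B. Most of it came from SOX9. ACAN, the main proteoglycan of cartilage, had 4 and 3 counts in JJ012 and 19 and 14 counts in 143B, and COL2A1, the main cartilage collagen, had 0 counts in both JJ012 libraries. ACAN and COL2A1 were thus absent or nearly so from the line labelled as chondrosarcoma, and COL9A1, HAPLN1 and CNMD had at most 3 counts in any library. COL11A2, also on the chondrocyte list, had 236 and 73 counts in JJ012 and 61 and 70 in 143B. It was at 1.67 FPKM in the JJ012 control and 0.52 FPKM in the 143B control. MATN3 had 55 and 17 counts in JJ012 and 32 and 16 in 143B. Osteoblast markers summed to 96.39 and 69.22 FPKM in JJ012 and to 6.99 and 5.10 FPKM in 143B, and the JJ012 sums rested mainly on SPP1, at 79.39 and 64.5 FPKM, and in the control on COL1A1, at 10.92 FPKM. RUNX2 was at 3.02 and 2.59 FPKM in JJ012 and at 4.28 and 2.75 FPKM in 143B, and BGLAP, osteocalcin, at 0.81 and 0.26 against 1.44 and 1.21 FPKM. PHEX had 330 and 171 counts in JJ012 and 3 and 6 counts in 143B. Of 5 osteoblast markers compared between the controls, 3 were called higher in JJ012 and 0 lower, beside 28.7% and 18.5% of all genes. RUNX2 and BGLAP lay below 0, at -0.39 and -0.43, and were not called. Blood cell markers summed to 10.82 and 3.72 FPKM in the JJ012 control and treated libraries, of which CD3E gave 9.73 and 3.28, and to 0.15 and 0.04 FPKM in 143B. Endothelial markers lay between 0.96 and 2.40 FPKM and epithelial markers between 0.08 and 1.43 FPKM in sum. The part of these markers in the results was not tested. In these bulk libraries, fewer cells that express a gene and less of its RNA per cell cannot be told apart.

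Promoter sequences were looked up for the 38 genes in RefSeq (GRCh38.p14), where 30 matched with 40 windows of 250 bases before a transcription start. The hexamer GGGCGG, the core of the GC box, was present on either strand in 30 of the 40 windows (75.0%), against 53.7% of 22199 windows of protein-coding genes. Counted by gene, 26 of the 30 held a match. Some genes had several windows, and those of EXT2 and OGN overlap in part, so that the windows are not separate observations. The hexamer CACGTG, an E-box, was present in 7.50% of the windows (genes CHSY1, HAS3 and SULF2) and in 7.37% of the protein-coding ones. ACGTG, the core of the hypoxia response element, which is also contained in CACGTG, was present in 15.0% against 20.2%. TGANTCA, bound by AP-1, was present in 2 of the 40 windows against 5.36% of the protein-coding ones, and GGAATG, bound by TEAD, in 7.50% against 10.5%. A match describes the letters of the window and does not show that a factor binds there.

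The windows of 4 core proteins are shown, each with a window that adjoins the start of its gene in the deposited table, because they span the range of levels described next. SDC4 had the highest level of any member, BGN was lower after melatonin in 143B, GPC6 was the most abundant glypican of JJ012, and ASPN was at or near 0 counts in every library. Capitals mark GGGCGG or its complement CCGCCC, and in GPC6 the complement CACGT of ACGTG.
SDC4, chr20:45348425-45348674, strand minus: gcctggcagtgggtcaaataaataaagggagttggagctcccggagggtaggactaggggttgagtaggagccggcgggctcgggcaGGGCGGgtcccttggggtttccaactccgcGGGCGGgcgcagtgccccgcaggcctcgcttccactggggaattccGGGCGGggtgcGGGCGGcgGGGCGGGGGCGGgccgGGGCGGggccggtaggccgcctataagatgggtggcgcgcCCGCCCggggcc
BGN, chrX:153494730-153494979, strand plus: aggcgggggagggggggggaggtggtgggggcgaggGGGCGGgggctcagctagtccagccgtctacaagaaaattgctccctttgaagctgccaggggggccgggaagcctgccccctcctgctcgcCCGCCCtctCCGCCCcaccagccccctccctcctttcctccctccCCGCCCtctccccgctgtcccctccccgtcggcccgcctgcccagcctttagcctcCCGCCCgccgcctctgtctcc
GPC6, chr13:93226557-93226806, strand plus: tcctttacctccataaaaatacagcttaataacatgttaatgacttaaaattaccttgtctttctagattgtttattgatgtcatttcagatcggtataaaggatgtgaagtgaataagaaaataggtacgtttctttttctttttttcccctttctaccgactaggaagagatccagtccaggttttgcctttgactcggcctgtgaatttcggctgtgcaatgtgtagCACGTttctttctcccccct
ASPN, chr9:92482507-92482756, strand minus: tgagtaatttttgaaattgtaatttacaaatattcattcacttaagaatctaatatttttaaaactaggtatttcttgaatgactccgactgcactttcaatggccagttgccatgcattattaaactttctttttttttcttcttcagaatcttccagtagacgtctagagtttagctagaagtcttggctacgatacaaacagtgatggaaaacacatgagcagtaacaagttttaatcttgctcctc
The SDC4 window held 8 matches to GGGCGG and the BGN window 5. The GPC6 window held none and had a GC content of 37.6%, and the ASPN window held none of the motifs and had a GC content of 32.4%. Windows with no match to GGGCGG thus included both an abundant and a silent member.

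The members differed widely in level. In the JJ012 control, 27 of the 38 reached 1 FPKM and 16 reached 10 FPKM, and 4 were at or under 3 counts. In melatonin-treated JJ012 the numbers were 26, 20 and 7. In the 143B control they were 28, 13 and 7, and in melatonin-treated 143B they were 29, 12 and 6. The summed level of the members was similar in the 4 libraries, at 565.39 and 522.73 FPKM in JJ012 and at 532.83 and 546.96 FPKM in 143B. The genes that made up the sum were different, as the plot of levels by gene shows.

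**Figure D1:**
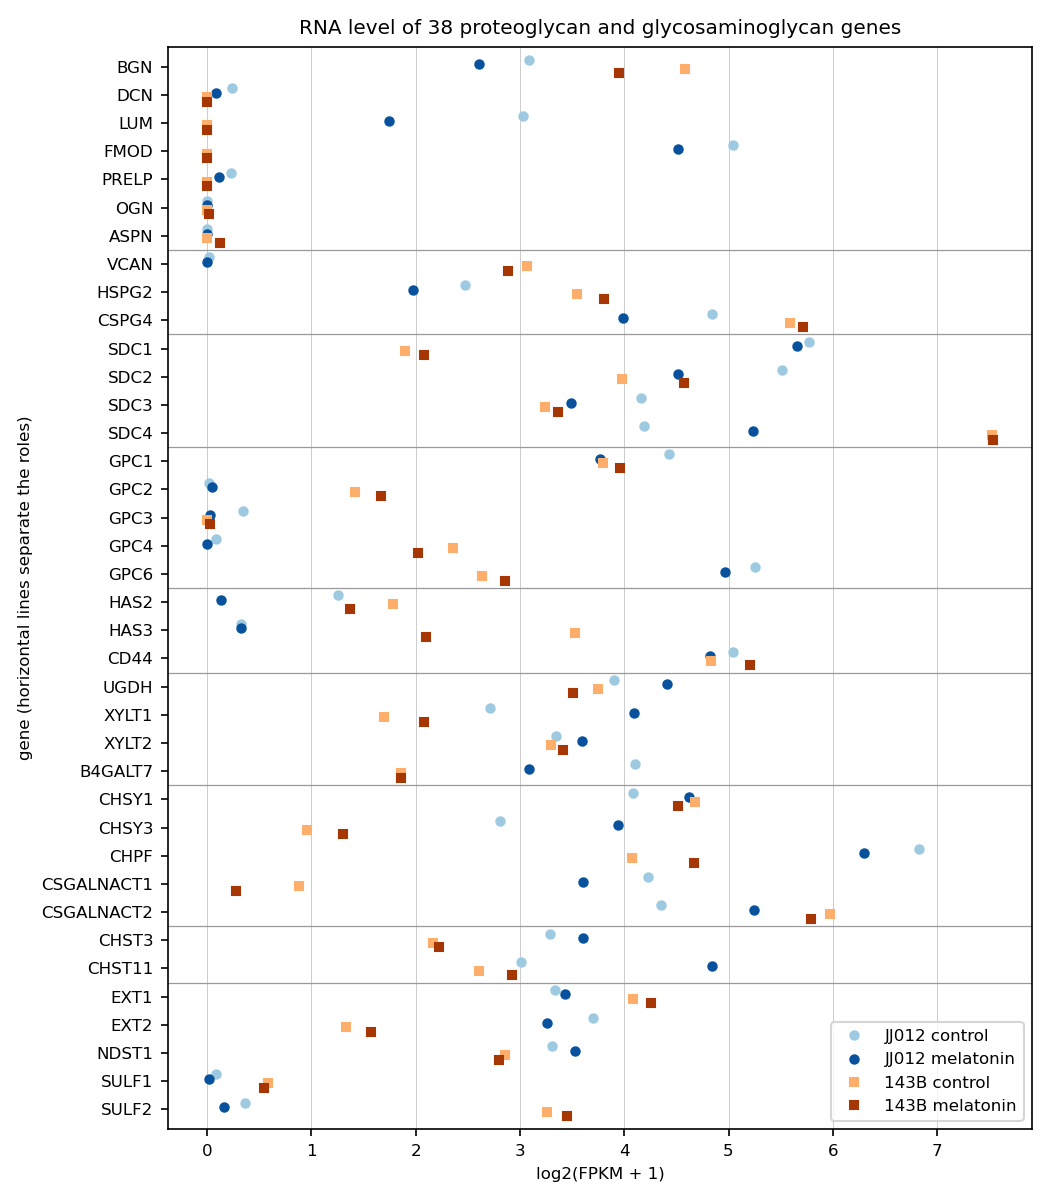
Level of each of the 38 genes, as log2(FPKM + 1), in the 4 libraries (1 point per library, no replicates), with horizontal lines between the roles. FMOD and LUM have points away from 0 only in JJ012, and SDC4 in 143B lies highest, at 182.93 FPKM in the control and 184.25 FPKM after melatonin.

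After melatonin, 13 of the 27 JJ012 members with enough signal passed 0.58. SDC4, XYLT1, CHSY3, CSGALNACT2 and CHST11 were higher, and LUM, CSPG4, SDC2, SDC3, GPC1, HAS2, B4GALT7 and CSGALNACT1 were lower. The 5 higher members are 18.5% of those compared, beside 19.6% of all 15794 genes compared and 17.8% of protein-coding genes. The 8 lower members are 29.6%, beside 18.6% of all genes and 16.1% of protein-coding genes. In either direction, 38.2% of all genes and 33.9% of protein-coding genes passed. The median of the members was -0.30, beside 0.0084 for all genes. The other 11 members were under 1 FPKM in both JJ012 libraries.

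In 143B, 4 of 29 members passed 0.58. SDC2 and CHPF were higher, and BGN and HAS3 were lower. Each direction holds 6.90% of the members, beside 6.09% of all 14135 genes compared in the higher direction and 6.65% in the lower one, and beside 3.48% and 2.60% of protein-coding genes. In either direction, 12.7% of all genes and 6.09% of protein-coding genes passed. The median of the members was 0.13, beside 0.0263 for all genes. The calls of SDC2 and CHPF lay just past the threshold and were lost under every other scaling tried, in which both stayed above 0. No member was called in the same direction in both lines under the settings described above. With a pseudocount of 0.1, CHSY3 was higher in both, at 0.585 in 143B. HAS2 was lower in both with a pseudocount of 0.1 or TPM. CSGALNACT1 was lower in both when no minimum level was required.

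**Figure D2:**
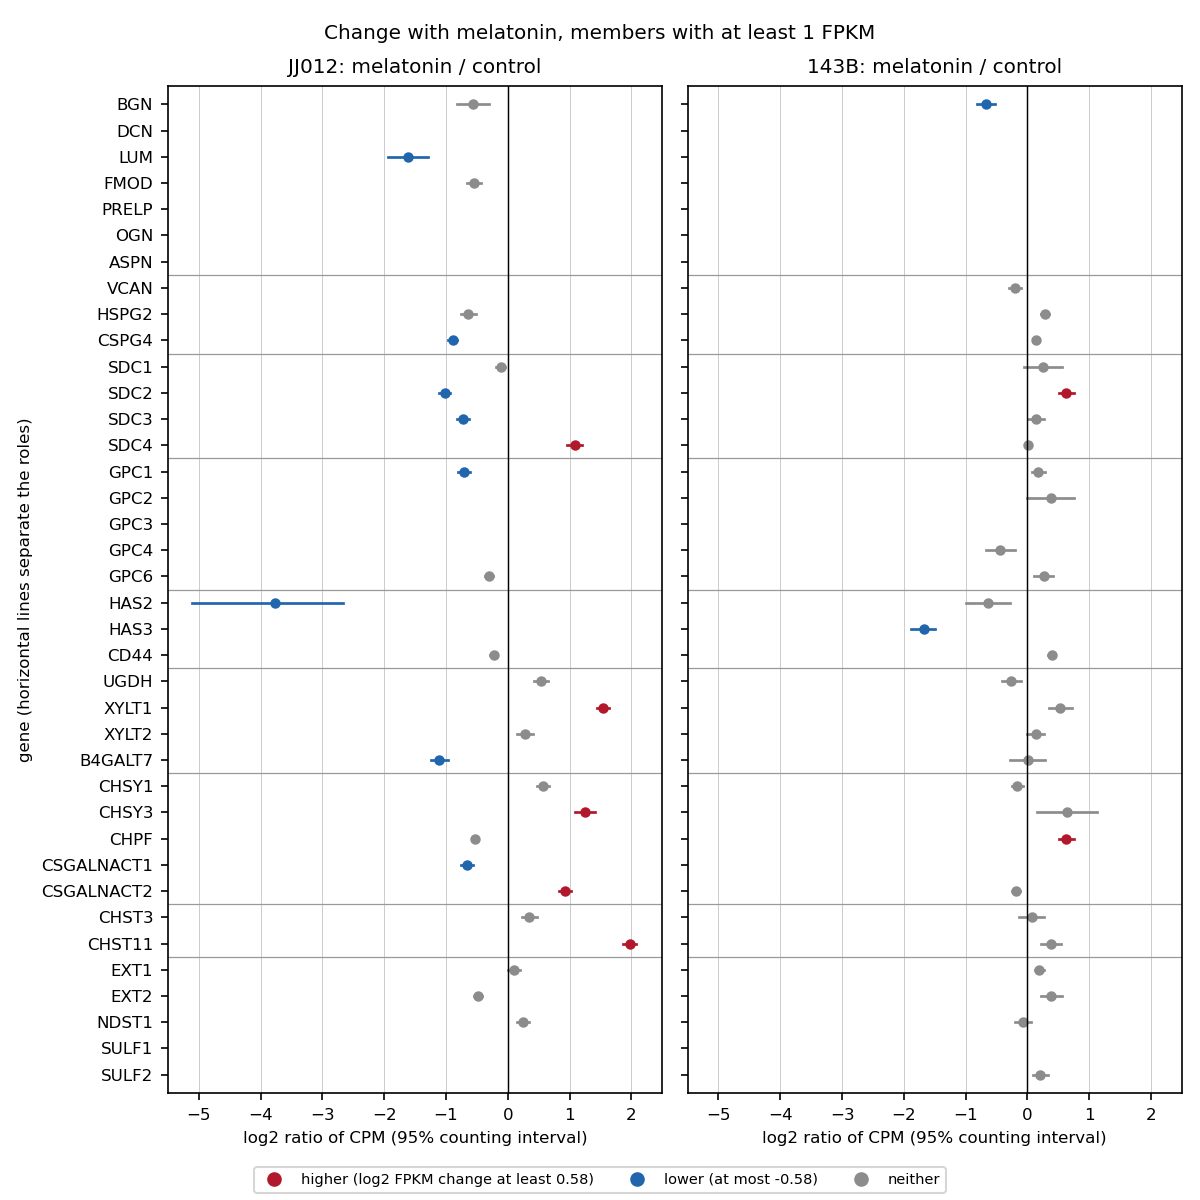
Log2 ratio of CPM, melatonin over control, for members with at least 1 FPKM in 1 of the 2 libraries of the line, with the 95% counting interval as a bar; red and blue mark members past 0.58 on the log2(FPKM + 1) scale. Points in JJ012 reach from HAS2 at -3.76 to CHST11 at 1.97, and in 143B most lie near 0, with HAS3 lowest at -1.68.

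Core proteins and enzymes of JJ012 are given apart. Of 11 core proteins compared, 10 were below 0, and 5 were called lower and 1 higher, with a median of -0.53. Of 15 enzymes compared, 10 were above 0, and 4 were called higher and 3 lower, with a median of 0.25. The lists overlapped widely, with core proteins from -1.29 to 1.04 and enzymes from -1.12 to 1.83. Of all genes, 18.6% were lower and 19.6% higher, beside 45.5% and 9.09% of the core proteins. The enzyme counts lay near those shares of all genes. The change in JJ012 moved with exonic length across protein-coding genes (Spearman rho 0.399 over 11534 genes, which share the 2 libraries), and the core proteins were shorter, with a median of 4084 bases against 5667 for the enzymes. With the running median over length taken away, the medians were -0.80 for core proteins and 0.16 for enzymes. Scaling to TPM moved the median of all JJ012 genes to 0.21, gave 8 members higher and 5 lower, and turned SDC1 to 0.16 and CD44 to 0.05. In 143B the medians were 0.14 for 12 core proteins and 0.09 for 16 enzymes.

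The small leucine-rich proteoglycans bind collagen and control the width of its fibrils. FMOD, fibromodulin, was at 31.88 FPKM in the JJ012 control, 21.8 FPKM in treated JJ012 and 0 FPKM in both 143B libraries, where no count was found. LUM, lumican, was at 7.15, 2.34, 0 and 0 FPKM in the same order, again with no count in 143B. BGN, biglycan, was at 7.51 and 5.10 FPKM in JJ012 and at 23.01 and 14.44 FPKM in 143B. The 143B libraries thus held BGN with almost none of the other members of the family, and the JJ012 libraries held mainly FMOD.

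LUM was 3.05-fold lower after melatonin in JJ012, with a log2 interval of the ratio from -1.94 to -1.29. FMOD was 1.46-fold lower and BGN 1.47-fold lower there, and on the log2(FPKM + 1) scale their differences of -0.53 and -0.48 did not pass 0.58. In 143B, BGN was 1.59-fold lower, and its difference of -0.64 passed. All 3 family members with enough signal in JJ012 and the 1 in 143B were therefore lower in the treated library. DCN, decorin, the relative most common in connective tissue, stayed under 1 FPKM, with 44 and 13 counts in JJ012 and 0 and 1 counts in 143B. PRELP had 19 and 7 counts in JJ012 and 0 in 143B. OGN and ASPN had at most 1 and 4 counts in any library. BGN overlaps HAUS7 on the other strand by 537 bases, where HAUS7 had between 47 and 59 counts, and the strand setting of the counting was not given in the sources used here.

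Of the larger core proteins, VCAN, versican, the hyaluronan-binding proteoglycan of loose connective tissue, was almost confined to 143B among these libraries. It had 2 and 1 counts in the JJ012 control and treated libraries and 1720 and 1616 counts in 143B. In 143B, VCAN was at 7.37 FPKM in the control and 6.41 FPKM in the treated library. The 143B difference of -0.18 did not pass.

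CSPG4, also called NG2, a transmembrane proteoglycan with chondroitin sulfate, was at 27.62 and 14.86 FPKM in JJ012 and at 47.05 and 51.51 FPKM in 143B. It was 1.86-fold lower after melatonin in JJ012 (log2 interval from -0.97 to -0.82), and its 143B difference of 0.13 did not pass. HSPG2, perlecan, the heparan sulfate proteoglycan of basement membranes, was at 4.54 and 2.92 FPKM in JJ012 and at 10.72 and 13.03 FPKM in 143B. Its differences of -0.50 and 0.26 did not pass. HSPG2 has an exonic length of 18118 bases, and with the length trend taken away its JJ012 difference was -0.86, past the threshold.

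Syndecans are transmembrane heparan sulfate proteoglycans that act as co-receptors of growth factors and bind the matrix together with integrins. Their summed level was 132.2 FPKM in the JJ012 control, 118.2 after melatonin, 208.8 in the 143B control and 219.5 after melatonin. SDC4, found at focal adhesions, was at 17.28 FPKM in the JJ012 control, 36.65 in treated JJ012, 182.93 in the 143B control and 184.25 in treated 143B. It was 2.12-fold higher after melatonin in JJ012 (log2 interval from 0.96 to 1.21), and the 143B libraries differed by 0.01. Of the syndecan sum, SDC4 gave 13.1% and 31.0% in the control and treated JJ012 libraries, against 87.6% and 83.9% in 143B.

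SDC2 was at 44.52 and 21.93 FPKM in JJ012 and at 14.72 and 22.74 FPKM in 143B, so that the treated libraries of the lines were nearly level. It was 2.03-fold lower after melatonin in JJ012 and 1.55-fold higher in 143B. The log2 changes of CPM differed between the lines by -1.65, with a counting interval from -1.79 to -1.50. Under the settings described above, SDC2 was the only member called in both lines, and the directions were opposite. Without replicates the difference between the lines was not tested.

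SDC1, the syndecan of epithelia and plasma cells, was at 53.49 and 49.34 FPKM in JJ012 and at 2.72 and 3.22 FPKM in 143B. SDC3 was at 16.89 and 10.24 FPKM in JJ012 and at 8.45 and 9.29 FPKM in 143B. After melatonin in JJ012, SDC3 was 1.65-fold lower and was called, though not with TPM, at -0.44, and the difference of SDC1 was -0.11. The 143B differences of SDC1 and SDC3 were 0.18 and 0.12, neither of which passed.

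**Figure D3:**
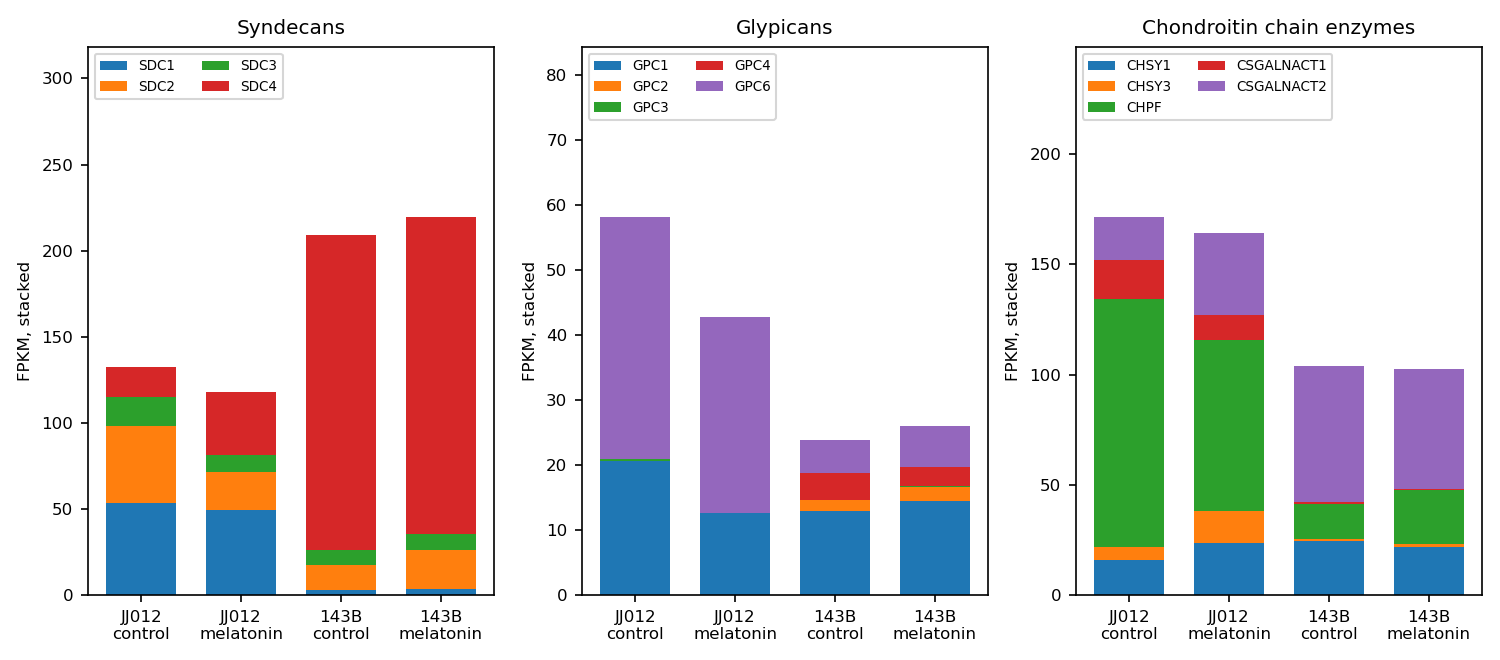
Stacked FPKM of the syndecans, the glypicans and the enzymes that polymerize chondroitin, with 1 bar per library and no replicates. SDC4 fills most of the 143B syndecan bars, GPC6 most of the JJ012 glypican bars, and CHPF most of the JJ012 control bar of the chondroitin enzymes.

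Glypicans are heparan sulfate proteoglycans held to the membrane by a lipid anchor, and they modulate Wnt, Hedgehog and growth factor signals. Their summed level was 58.2 and 42.9 FPKM in JJ012 and 23.9 and 26.0 FPKM in 143B. GPC6 was at 37.26 and 30.18 FPKM in JJ012 and at 5.2 and 6.23 FPKM in 143B. GPC1 was at 20.59 and 12.62 FPKM in JJ012 and at 12.91 and 14.53 FPKM in 143B. GPC6 thus led the family in JJ012, with 64.0% of the sum in the control and 70.4% after melatonin, and GPC1 led it in 143B, with 54.0% and 55.9%.

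GPC1 was 1.63-fold lower after melatonin in JJ012 (log2 interval from -0.80 to -0.61), a call lost with TPM, at -0.42, and GPC6 differed by -0.30 and was not called. In 143B, GPC1 differed by 0.16 and GPC6 by 0.22, and neither passed. GPC4 and GPC2 were found mainly in 143B. GPC4 had 6 and 0 counts in JJ012 and 326 and 260 counts in 143B, and GPC2 had 1 and 2 counts in JJ012 and 102 and 143 counts in 143B. GPC3, the glypican known from liver tumors, had 17 counts in the JJ012 control and at most 1 in any other library.

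HAS2 was low in all libraries, and HAS3 was low in JJ012. HAS2, the main synthase of mesenchymal cells, had 113 counts in the JJ012 control, 7 in treated JJ012, 165 in the 143B control and 115 in treated 143B, or 1.39, 0.10, 2.45 and 1.58 FPKM. HAS2 was 13.6-fold lower by CPM in treated JJ012, with a wide log2 interval from -5.11 to -2.67, and the difference on the log2(FPKM + 1) scale was -1.12. HAS2-AS1, a transcript on the other strand that overlaps HAS2 by 2148 bases, had 105 and 23 counts in JJ012 and 14 and 17 in 143B. Without the strand setting, reads of HAS2 and HAS2-AS1 in the overlap cannot be told apart. In 143B, HAS2 was 1.55-fold lower (log2 interval from -0.99 to -0.28), and its difference of -0.42 did not pass, but with a pseudocount of 0.1 it was -0.60 and with TPM -0.62, past the threshold.

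HAS3 was at 10.57 FPKM in the 143B control and 3.29 FPKM in treated 143B, with 873 and 294 counts. It was 3.21-fold lower after melatonin, with a log2 interval from -1.88 to -1.49, which made HAS3 the member with the largest difference in 143B on the log2(FPKM + 1) scale, at -1.43. In JJ012 it had 25 and 21 counts, 0.25 FPKM in both libraries. HAS3 overlaps CHTF8 on the other strand by 710 bases, where CHTF8 had 34 and 72 counts in 143B. CD44 was abundant everywhere, at 31.95 and 27.32 FPKM in JJ012 and at 27.46 and 35.96 FPKM in 143B, and it was not called in either line.

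The enzymes that supply and start the chains lay on both sides of 0 in JJ012. XYLT1, a xylosyltransferase that begins the linker, was at 5.55 and 16.11 FPKM in JJ012 and at 2.24 and 3.24 FPKM in 143B. B4GALT7, the galactosyltransferase that adds the next sugar of the linker, was at 16.13 and 7.49 FPKM in JJ012 and at 2.62 and 2.63 FPKM in 143B. After melatonin in JJ012, XYLT1 was 2.90-fold higher (log2 interval from 1.44 to 1.64) and B4GALT7 was 2.15-fold lower (log2 interval from -1.25 to -0.97). Both calls were lacking in 143B, where XYLT1 differed by 0.39 and B4GALT7 by 0.0040.

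XYLT2, the other xylosyltransferase, was at 9.18 and 11.09 FPKM in JJ012 and at 8.8 and 9.64 FPKM in 143B, nearly level in all libraries. UGDH, which makes UDP-glucuronate, was at 13.9 and 20.19 FPKM in JJ012 and at 12.43 and 10.38 FPKM in 143B. Neither was called in either line.

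The enzymes that polymerize chondroitin differed in their proportions between the JJ012 libraries, while their sum was 171.5 FPKM in the control and 164.1 FPKM after melatonin. CHPF, the polymerizing factor that works with the CHSY synthases, was at 112.39 and 77.94 FPKM in JJ012 and at 15.79 and 24.45 FPKM in 143B. CSGALNACT2, which adds the first N-acetylgalactosamine, was at 19.39 and 36.99 FPKM in JJ012 and at 61.93 and 54.53 FPKM in 143B. In JJ012 the share of CHPF in the sum was 65.5% in the control and 47.5% after melatonin, and that of CSGALNACT2 was 11.3% and 22.5%. In 143B CSGALNACT2 led the sum, with 59.5% and 53.2%.

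CSGALNACT2 was 1.91-fold higher after melatonin in JJ012, and its partner CSGALNACT1 was 1.58-fold lower. The call of CSGALNACT1 was lost with TPM, at -0.38, and with TMM, at -0.55. CSGALNACT1 was at 17.74 and 11.19 FPKM in JJ012 and at 0.84 and 0.21 FPKM in 143B. In 143B it was under the level required for a call, with 102 and 27 counts, a ratio 4.08-fold lower (log2 interval from -2.70 to -1.41). The CSGALNACT1 ratio was thus below 1 in both lines, from a much lower level in 143B.

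CHSY3 was at 6.01 and 14.3 FPKM in JJ012, 2.38-fold higher, and at 0.94 and 1.46 FPKM in 143B. CHSY1 was at 15.92 and 23.66 FPKM in JJ012 and at 24.54 and 21.89 FPKM in 143B. CHSY1 was not called in either line, and its JJ012 difference of 0.54 lay just under the threshold and passed it under TMM scaling, at 0.61. CHPF was 1.55-fold higher in treated 143B, a difference of 0.60, and differed by -0.52 in JJ012.

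CHST11, which places sulfate on the 4-position of chondroitin, had the largest positive difference of the members in JJ012. It was at 7.05 FPKM in the JJ012 control, 27.67 in treated JJ012, 5.08 in the 143B control and 6.59 in treated 143B. It was 3.92-fold higher in treated JJ012 (log2 interval from 1.86 to 2.08) and differed by 0.32 in 143B. CHST3, which places sulfate on the 6-position, was at 8.79 and 11.2 FPKM in JJ012 and at 3.49 and 3.66 FPKM in 143B, and was not called. Of the sum of both sulfotransferases, CHST11 gave 44.5% and 71.2% in control and treated JJ012, and 59.2% and 64.3% in 143B.

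Of the 5 heparan sulfate enzymes among the members, 3 had enough signal to be compared in JJ012 and 4 in 143B. None of those compared was called after melatonin. EXT1, a subunit of the heparan sulfate polymerase, was at 9.1 and 9.8 FPKM in JJ012 and at 15.92 and 18.17 FPKM in 143B. EXT2, the other subunit, was at 11.98 and 8.57 FPKM in JJ012 and at 1.52 and 1.98 FPKM in 143B. NDST1, which removes acetyl groups and adds sulfate to the nitrogen of the chain, stayed between 5.95 and 10.56 FPKM. The differences of these 3 enzymes lay between -0.44 and 0.24. With the length trend taken away, EXT2, with an exonic length of 20632 bases, was at -0.83 in JJ012.

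SULF1 and SULF2 are endosulfatases that remove sulfate from heparan sulfate outside the cell. SULF2 had 39 and 14 counts in JJ012 and 952 and 1186 counts in 143B, where it was at 8.58 and 9.9 FPKM and was not called. In JJ012 SULF2 was under the level required for a call, with a ratio 2.34-fold lower (log2 interval from -2.22 to -0.31). SULF1 stayed at or under 0.5 FPKM in all libraries and was not compared in either line. SULF2 overlaps NCOA3 on the other strand by 681 bases, and NCOA3 had 3905 and 3043 counts in 143B.

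Many members differed between the lines. In the control libraries, 32 members had enough signal, and 12 were at least 1 log2 unit higher in JJ012 and 9 at least 1 lower. The higher ones are 37.5% of the members compared, beside 28.7% of all 16929 genes compared and 26.3% of protein-coding genes. The lower ones are 28.1%, beside 18.5% and 16.5%. In either direction, 42.8% of protein-coding genes and 47.2% of all genes passed. The median of the members was 0.31 and that of all genes 0.29. With the fold changes centred on the median gene the counts were 10 and 11, and TPM gave 10 and 13 with a member median of -0.16. The JJ012 and 143B controls of this comparison are the same libraries that served as the controls for melatonin.

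FMOD was at least 512-fold and LUM at least 101-fold higher in the JJ012 control, against the floor of 3 counts in the 143B control, where both had 0 counts. SDC1 was 19.7-fold, CSGALNACT1 21.1-fold, EXT2 7.90-fold, GPC6 7.17-fold, CHPF 7.12-fold, CHSY3 6.39-fold and B4GALT7 6.16-fold higher in JJ012. SDC2, XYLT1 and CHST3 made up the 12, at 3.02-fold, 2.48-fold and 2.52-fold. The calls of XYLT1 and CHST3 were lost when the fold changes were centred or scaled in other ways. The members higher in JJ012 therefore held 2 collagen-binding core proteins, 3 cell surface core proteins and 7 enzymes.

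In the other direction, HAS3 was 42.2-fold, SULF2 29.5-fold, SDC4 10.6-fold, CSGALNACT2 3.19-fold, BGN 3.06-fold and HSPG2 2.36-fold lower in JJ012. With the length trend taken away, HSPG2 was at -0.80 and lost its call. VCAN, GPC2 and GPC4 were lower too, and rest on 2, 1 and 6 counts in the JJ012 control. The VCAN ratio was 1040-fold, with a log2 interval from -13.07 to -8.17. Genes of 1 family stood on opposite sides, with SDC1 and SDC2 higher and SDC4 lower in JJ012, GPC6 higher and GPC2 and GPC4 lower, and CSGALNACT1 higher and CSGALNACT2 lower.

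The treated libraries gave a second pair for the same question. There, 12 members were higher and 10 lower in JJ012, beside 24.7% and 15.4% of all 16239 genes compared and 22.2% and 14.2% of protein-coding genes. In either direction, 40.0% of all genes and 36.4% of protein-coding genes passed. Of 32 members compared in both pairs, 27 had the same call, and 19 of these were called in the same direction. CSPG4, SDC2, HAS2, CSGALNACT2 and CHST11 had different calls. SDC2 went from 1.53 in the control pair to -0.05 in the treated pair, CSGALNACT2 from -1.63 to -0.55, and CHST11 from 0.40 to 1.92. CSPG4 went from -0.75 to -1.73 and HAS2 from -0.53 to -1.23. SDC2 and CSGALNACT2 were thus closer between the lines in the treated pair, and CSPG4, HAS2 and CHST11 were farther apart.

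**Figure D4:**
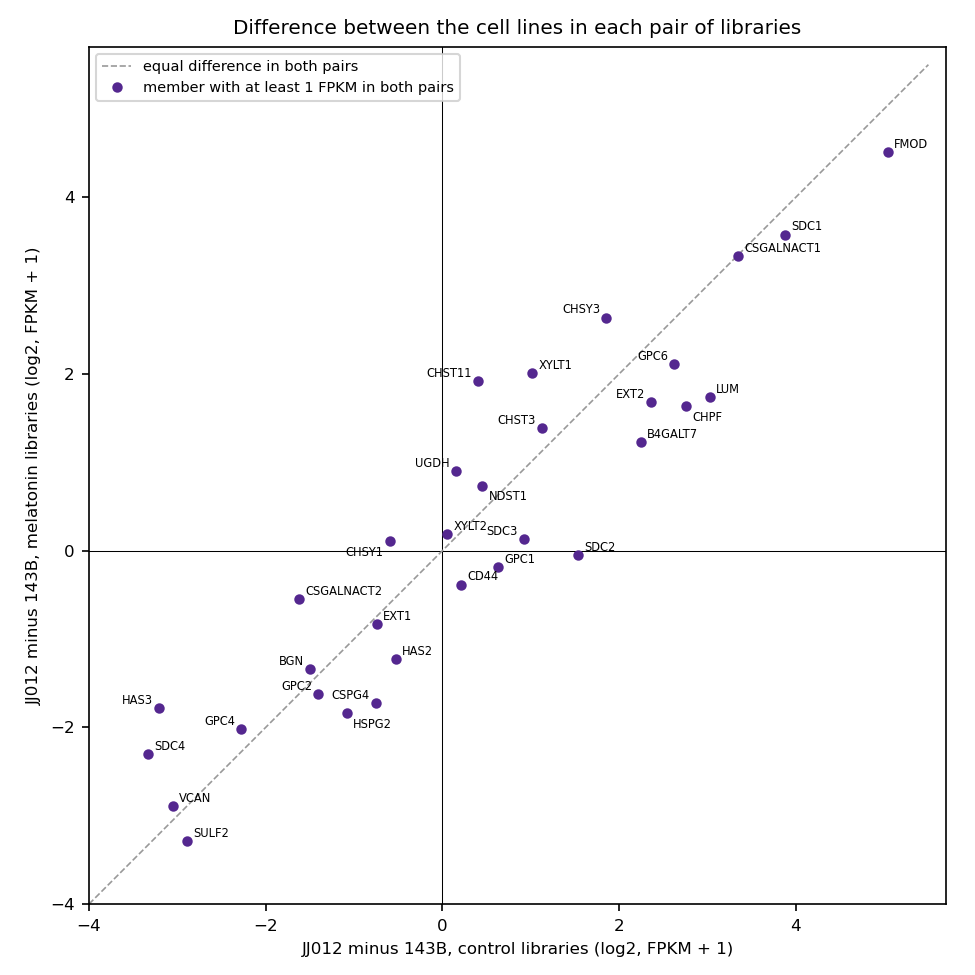
Difference between the lines, as log2 of the ratio of FPKM + 1, JJ012 over 143B, in the control libraries (horizontal) and in the melatonin libraries (vertical), with 1 point per member and a dashed line for equal differences. FMOD lies at the upper right (5.04 and 4.51) and SULF2 and SDC4 at the lower left, and SDC2 and CHST11 lie farther from the line than their neighbours.

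A further 89 genes of the same pathways were read beside the members. In JJ012, 58 were compared, and 3 were higher and 11 lower after melatonin. The higher ones are 5.17% of those compared, well under the 19.6% of all genes and 17.8% of protein-coding genes, though they numbered 14 with TPM. The share of the lower ones was close to the 18.6% of all genes. TGFBR3, betaglycan, which was at 3.14 and 8.49 FPKM, IDS, the lysosomal iduronate sulfatase, at 0.88, and GFPT1, which starts hexosamine synthesis, at 0.73 were higher. Among the lower ones were AGRN, agrin, at -1.16, SRGN, serglycin, at -1.03, CHST14, the dermatan sulfotransferase, which was at 19.52 and 9.28 FPKM, and 2 genes of sulfate donor supply, PAPSS2 at -1.09 and SLC35B2 at -0.93. The further core proteins were listed together with their binding partners. Of 8 such genes compared in JJ012, 4 were lower and 1 higher (50.0% and 12.5%, beside 18.6% and 19.6% of all genes). Their median was -0.58, with single values from -1.16 to 1.20.

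In 143B, 57 of the further genes were compared, and 8 were higher and 1 lower (14.0% and 1.75%, beside 6.09% and 6.65% of all genes). Among protein-coding genes the shares were 3.48% and 2.60%, so that the lower share was near theirs. IDUA, the lysosomal iduronidase, was higher by 1.37, CEMIP, which takes part in hyaluronan breakdown, by 1.32, ESM1, endocan, by 1.12, B3GALT6, a linker galactosyltransferase, by 0.75, and HGSNAT, a lysosomal enzyme of heparan sulfate breakdown, by 0.64. CEMIP was at 38.99 FPKM in the 143B control and 99.15 FPKM after melatonin, in the line in which HAS3 was lower. In JJ012, CEMIP was at 6.20 and 5.93 FPKM. On the other strand, SLC26A1 overlaps IDUA by 6444 bases and had 19 and 51 counts in 143B. MESD overlaps CEMIP by 5488 bases, with 599 and 733 counts. Without the strand setting, reads in these overlaps cannot be told apart.

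Between the control libraries, 61 of the further genes were compared, and 29 were higher and 6 lower in JJ012 (47.5% and 9.84%, beside 28.7% and 18.5% of all genes). Among protein-coding genes the shares were 26.3% and 16.5%. Among the higher ones were NAGLU, a lysosomal enzyme of heparan sulfate breakdown, at 3.25, B3GAT3, which completes the linker, at 3.21, and EXTL2 at 2.52. Among the lower ones were ESM1 at -3.79, CHST15 at -2.91, CEMIP at -2.47 and GFPT2 at -2.05.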

How the data were processed

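Poly(A) RNA of suspended JJ012 and 143B cells was sequenced in 4 libraries, grouped by the sample labels as control or 1 mM melatonin (72 h). The suffix T of a column was taken to mean treated. The deposited table holds, for each gene, raw counts (whole numbers) and the exonic length. The authors also deposited FPKM, which are those counts divided by exonic length and library total, rounded to 2 decimals. FPKM recomputed from the counts differed from the deposited values by 0. The submitters' processing notes name cutadapt 1.9.1, HISAT2 2.2.1, HTSeq 0.6.1 and DESeq2 and the hg38 build. The strand setting was not given in the sources used here.

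Log2 fold changes used FPKM plus a pseudocount of 1, for genes that reached 1 FPKM in either library of a comparison. The thresholds were 0.58 for melatonin and 1 between lines. With 1 library per condition no test was run. Since counts were present, ratios of CPM with exact (Clopper-Pearson) 95% intervals were added, which cover counting error only. Totals of 15889564 to 19218343 counts set the floor of 3 counts between 0.156 and 0.189 CPM. A fold against 0 counts was computed against that floor per library. All 38 members are named, and for the further 89 pathway genes up to 5 called genes per direction with at least 5 FPKM in 1 of the libraries, ranked by the size of the difference. Some genes of this rule are not reported here. The members and lists were chosen with earlier results of these data known. Gene types came from GENCODE 29.

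The alternatives were a pseudocount of 0.1, no filter and a filter of 5 FPKM, TPM, median centring, TMM (edgeR, used for its factors alone), median-of-ratios factors computed after the method of DESeq2, removal of a running median over exonic length (501 genes), and other thresholds. The treated pair served as the alternative for the lines. The code was tested on simulated counts. Python 3.11.15, numpy 2.4.6, pandas 2.3.3 and scipy 1.17.1 were used.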

Additional observations from a re-analysis of the deposited data

Results flagged for a closer look

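SDC2, the cell surface proteoglycan syndecan-2, was called in opposite directions in the 2 lines. Its log2 fold change of FPKM + 1 after melatonin was -0.99 in JJ012 and 0.59 in 143B, with 3494 and 1446 counts in JJ012 and 955 and 1594 counts in 143B. The difference between the lines was not tested, since each condition was 1 library. The 143B value passed the threshold of 0.58 by a small margin and was under it in the alternatives that change the scaling, while the sign was kept.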

How the results depend on the processing

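No paired analysis was possible because each group held 1 library and the labels give no replicate numbers. For the same reason no replicate could be left out in turn. Of 137 counts and medians recomputed under the alternatives, 118 stayed within 1.5 times the reported count, or within the interval of the median, and 19 did not. Of 528 fold changes of single members, recomputed on the same pairs of libraries, none changed sign after a call, and 169 moved beyond their counting interval. In the treated pair, the alternative for the lines, SDC2 went from a called 1.53 to -0.05.

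In JJ012 after melatonin, TPM gave 8 members higher and 5 lower and 14 of the further pathway genes higher. SDC3, GPC1 and CSGALNACT1 lost their calls, and UGDH, CHSY1 and CHST3 gained one. TMM gave 5 further genes higher, the filter of 5 FPKM gave 6 lower, and a threshold of 1 gave 3 members lower, 1 further gene higher and 4 lower. In 143B, 0 members were higher under TPM, median centring, TMM, median-of-ratios factors, removal of the length trend or a threshold of 1. TPM gave 4 members lower there, and a threshold of 1 gave 1 member lower, 3 further genes higher and 0 lower. The filter of 5 FPKM gave 0 further genes lower. Fewer genes pass a stricter filter or threshold by construction, and the cause of the other shifts was not tested. Between the lines no count moved by more than 1.5 times. Depth limits DCN, PRELP, OGN, ASPN, GPC3 and SULF1 most, which had at most 75 counts in any library.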
